A study of Mus musculus with 16 samples.

Results

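The exposure compared here is the insecticide alpha-cypermethrin against its corn oil vehicle in dams that were also restrained, measured in the migrating GABAergic cells of their embryos. It takes up 8 of the 16 libraries of the series, chosen by the treatment in their labels: 4 cypermethrin stressed and 4 vehicle stressed embryos. All 13224 genes with enough counts were tested. No gene passed edgeR's test, and the values below describe which genes stood closest to the threshold, how the libraries lay behind them, and how far the gene groups that a pyrethroid or restraint might touch differed between the groups.

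Cypermethrin is a pyrethroid, a class of insecticides that hold voltage-gated sodium channels open and so prolong the sodium current of nerve cells. Cortical interneurons are born in the ganglionic eminences of the ventral forebrain and reach the cortical plate by tangential migration, guided by chemokine, neuregulin and semaphorin receptors, and their calcium, GABA and glutamate signals help to set when they move and when they stop. Maternal restraint raises glucocorticoids, which act through the receptor encoded by Nr3c1 and induce genes such as Fkbp5 and Sgk1.

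The cypermethrin stressed group had 10 mg/kg by gavage on each of gestational days 11 to 14 together with restraint. The vehicle stressed group had corn oil on the same days and the same restraint. Restraint was given under bright light in 3 sessions of 45 min on days 12 and 13, and a last round on day 14 ended 15 min before the dam was killed. All embryos were CD1, carried the GAD67-GFP reporter in 1 copy (GAD67-GFP+/-), were recorded as male, came from 1 litter each and were taken at embryonic day 14.5. About 1000 GFP-positive cells per embryo were cut out by laser from the migration front in fixed sections, so each library pools the cells of 1 embryo and holds whatever lay in the captured spots. The non-stressed cypermethrin and vehicle groups, with 4 embryos each, enter where the difference between stressed and non-stressed dams is given, and beside some genes at low levels.

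The label calls the cells GABAergic progenitors. Gad2, the gene of a GABA-synthesising enzyme, had 212 to 341 CPM in the cypermethrin libraries and 146 to 323 CPM in the vehicle libraries (counts scaled to a common library size). The migrating interneuron genes Lhx6, with 202 to 347 CPM in the 8 libraries, and Sst, with 122 to 230 CPM, were present in each. Of progenitor genes, Nes had 259 to 699 CPM, while Hes5, a Notch target of dividing radial glia, had no count in any of the 8 libraries. Hes5 was the only 1 of 17 listed radial glia and progenitor genes at 0 in all 8. The list summed to 1670 to 1960 CPM with cypermethrin and 1800 to 2080 CPM with vehicle. Neurod6, a gene of cortical glutamatergic neurons, had 978 to 2180 CPM, and the source of that RNA was not tested.

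Total counts per library ran from 3673832 to 4324129 in the cypermethrin group and from 2410165 to 4081404 in the vehicle group, with a mean of 4011514 ± 315800 for cypermethrin and 3133122 ± 697900 for vehicle (SD, n = 4 each). The ratio was 1.28 (two-sided exact permutation p = 0.0857, smallest possible 0.0286). The library labelled vehicle replicate 1 stood apart and went against its label. It had the fewest genes detected, 12153, against 13605 to 16536 in the other 7. Xist, the RNA that silences an X chromosome in females, had 9521 counts there and at most 26 counts in the other 7 libraries, while genes of the Y chromosome summed to 1 count there and to 198 to 341 CPM elsewhere. The values without that library are also given for many of the leading genes it moved and for the gene lists whose balance it turned.

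Cypermethrin and vehicle libraries of stressed dams could not be separated gene by gene. At a Benjamini-Hochberg adjusted p under 0.05 edgeR's quasi-likelihood test called 0 of the 13224 genes (0.0%), and the smallest adjusted p was 0.902. At an unadjusted p under 0.05 there were 713 genes (5.39%), of which 296 (2.24%) were fitted higher and 417 (3.15%) lower with cypermethrin. With upper quartile scaling that split was 328 higher and 270 lower, and with limma voom it was 277 higher (2.09%) and 223 lower (1.69%). DESeq2 called 2 genes (0.0151%), Dnajc1 and Tnfrsf22, both lower, and had 915 (6.92%) at an unadjusted p under 0.05, while limma voom called 0, with 500 (3.78%). Without the library labelled vehicle replicate 1 edgeR called 0 of 13609 genes (0.0%, smallest adjusted p = 0.637), with 497 (3.65%) at an unadjusted p under 0.05.

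Most fitted differences were small, and most intervals were wide. Of the genes tested 85.2% had a log2 difference, cypermethrin over vehicle, between -1 and 1, and the median was -0.01. The 95% interval of the difference lay inside that range for 25.6% of all genes and for 79.7% of the 3306 genes with the highest levels. A doubling or halving was therefore outside the interval for most highly expressed genes, and inside it for most of the rest.

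Dnajc1, a J-domain co-chaperone gene of the endoplasmic reticulum, had the smallest p. It lies on chromosome 2 from 18195654 to 18392830 (mm10), where Mllt10 overlaps it, and the use of strand in counting is not stated. Its level was 51.7, 53.1, 78.6 and 66.5 CPM in the cypermethrin libraries, against 219, 230, 52.4 and 284 CPM in the vehicle libraries. Vehicle replicate 3 lay among the cypermethrin libraries, and the other vehicle libraries lay far above them. The log2 difference was -1.65 ± 0.36 (SE), with an unadjusted p of 7.73e-05 and an adjusted p of 0.902 by edgeR. DESeq2 gave an adjusted p of 0.0332, which became 0.143 without the library labelled vehicle replicate 1, and edgeR without vehicle stressed replicate 3 gave 0.00299 with a log2 difference of -1.97.

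Tnfrsf22, a mouse decoy receptor of the death ligand TRAIL, had 6.93, 1.61, 7.29 and 4.49 CPM with cypermethrin, against 65.6, 24.7, 89.0 and 8.96 CPM with vehicle. The groups did not overlap, though the lowest vehicle library came close. The log2 difference was -3.20 ± 0.76, and it was -3.00 without the library labelled vehicle replicate 1. DESeq2 called it at an adjusted p of 0.0332, which became 0.207 without that library.

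Genes of neuronal signalling were among the 12 with the smallest p on the lower side. Crtc1, the CREB coactivator that carries calcium and cAMP signals to the nucleus, had 47.7, 69.2, 69.8 and 76.8 CPM with cypermethrin, against 245, 104, 146 and 129 CPM with vehicle. Cnih3, whose protein is an AMPA receptor auxiliary subunit, had 55.8, 39.9, 45.0 and 45.9 CPM with cypermethrin, against 215, 128, 94.4 and 80.1 CPM with vehicle. In neither gene did the groups overlap, and in both the library labelled vehicle replicate 1 was the highest. Without it the log2 differences were -0.94 for Crtc1 and -1.12 for Cnih3, against -1.24 ± 0.30 and -1.47 ± 0.36 with it. Sarm1, the NAD hydrolase that executes axon degeneration, had 68.7 to 107 CPM with cypermethrin and 93.8 to 272 CPM with vehicle, so that its groups overlapped. Its log2 difference was -1.11 ± 0.29, and -0.81 without the library labelled vehicle replicate 1.

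**Figure D1:**
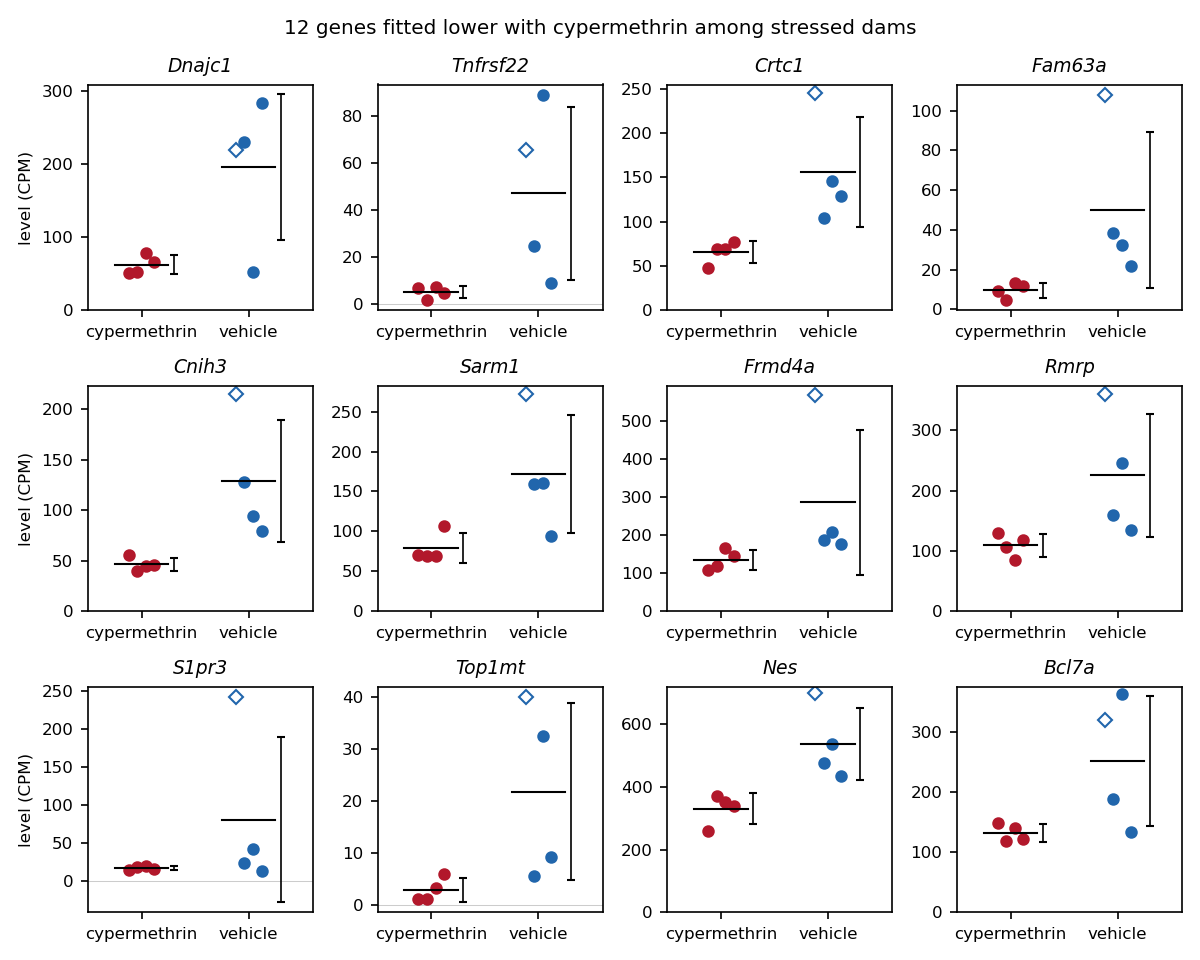
Level in CPM (y axis, linear, 1 scale per panel) of the 12 genes fitted lower with the smallest unadjusted p, in the cypermethrin (red circles, left) and vehicle (blue, right) libraries of stressed dams; lines are means, bars are SDs of 4 libraries, and the open diamond is the library labelled vehicle replicate 1. That library was the highest of all 8 in 9 of the 12 panels. The groups did not overlap in 7, as in 3.04% of all genes tested, and the 12 were chosen by p from these same libraries.

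Nes encodes nestin, the intermediate filament of radial glia and progenitors. It had 259, 373, 351 and 341 CPM with cypermethrin, against 699, 476, 537 and 436 CPM with vehicle, and the groups did not overlap. The log2 difference was -0.70 ± 0.20, the smallest SE among these 12 genes, and it was -0.55 without the library labelled vehicle replicate 1. Of the 15 radial glia and progenitor genes tested 6 were fitted lower, Nes among them, and 9 higher. Those that had an unadjusted p under 0.05 besides Nes were both higher. Tnc, an extracellular matrix gene, had 4.91 to 28.6 CPM with cypermethrin and 0 to 5.70 CPM with vehicle. Eomes, the gene of intermediate progenitors, had 50 counts in the cypermethrin libraries and 2 in the vehicle libraries, a ratio of 18.9 (95% counting interval 4.96 to 160.0, which covers counting error only). In the non-stressed vehicle libraries the means were 16.7 CPM for Tnc and 1.62 CPM for Eomes, against 15.2 and 3.3 CPM with cypermethrin in stressed dams.

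The remaining lower genes had varied roles. Fam63a, a deubiquitinase gene, had 4.61 to 13.0 CPM with cypermethrin and 21.9 to 108 CPM with vehicle, and Rmrp, the RNA of the RNase MRP complex, had 84.8 to 129 CPM with cypermethrin and 135 to 360 CPM with vehicle. Bcl7a, a subunit gene of BAF chromatin remodelling complexes, had 119 to 149 CPM with cypermethrin and 134 to 364 CPM with vehicle. Top1mt, the mitochondrial topoisomerase gene, had at most 5.98 CPM with cypermethrin and 5.64 to 40.0 CPM with vehicle. The last 2 rested on the library that stood apart. S1pr3, a sphingosine-1-phosphate receptor gene, had 242 CPM there and 13.2 to 41.7 CPM in the other vehicle libraries, against 13.9 to 19.7 CPM with cypermethrin. Frmd4a, a FERM-domain scaffold gene, had 571 CPM there and 177 to 210 CPM in the others, against 110 to 168 CPM with cypermethrin. Without that library the log2 difference of S1pr3 was -0.65, against -2.26, that of Frmd4a was -0.50, against -1.08, and that of Fam63a was -1.68, against -2.38. Top1mt had -2.42 without it, against -2.89, Rmrp had -0.72, against -1.04, and Bcl7a had -0.79, against -0.92.

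On the higher side cypermethrin replicate 1 was the highest of the 8 libraries for 7 of the 12 leading genes, and 3 of these show it most plainly. Cog4, a subunit gene of the Golgi tethering complex, had 308, 60.2, 23.4 and 35.9 CPM with cypermethrin, against 25.7, 26.0, 12.8 and 20.3 CPM with vehicle. Nkain2, whose protein binds the sodium pump, had 235, 28.8, 28.7 and 16.9 CPM with cypermethrin, against 1.90, 20.0, 8.55 and 14.6 CPM with vehicle. Gtf3c1, a subunit gene of the RNA polymerase III factor TFIIIC, had 799, 148, 134 and 155 CPM with cypermethrin, against 86.6, 123, 121 and 134 CPM with vehicle. In each of the 3, a single cypermethrin library stood several-fold above the other 3, which lay near or among the vehicle libraries. Without cypermethrin stressed replicate 1 the log2 differences were 0.91 for Cog4, 1.12 for Nkain2 and 0.33 for Gtf3c1, against 2.33 ± 0.62, 2.75 ± 0.75 and 1.41 ± 0.44 with it. Sf3b3 overlaps Cog4 in the annotation, and reads of the 2 cannot be told apart without strand.

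Mfsd6 and Mcl1 were higher by less, at levels where counting noise is small. Mfsd6, a transporter family gene, had 111, 104, 55.6 and 70.0 CPM with cypermethrin, against 21.4, 45.1, 41.3 and 44.3 CPM with vehicle, with no overlap (log2 difference 1.16 ± 0.36, and 0.96 without the library labelled vehicle replicate 1). Mcl1, an antiapoptotic BCL2 family gene that neural precursors need to survive, had 327, 303, 144 and 163 CPM with cypermethrin, against 104, 104, 144 and 162 CPM with vehicle (0.87 ± 0.28). Within the libraries of 1 code in the descriptions its log2 difference was 1.6, and within those of the other it was 0.00. Zfp386, a zinc finger gene, had 97.6 to 186 CPM with cypermethrin and 49.9 to 98.0 CPM with vehicle.

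**Figure D2:**
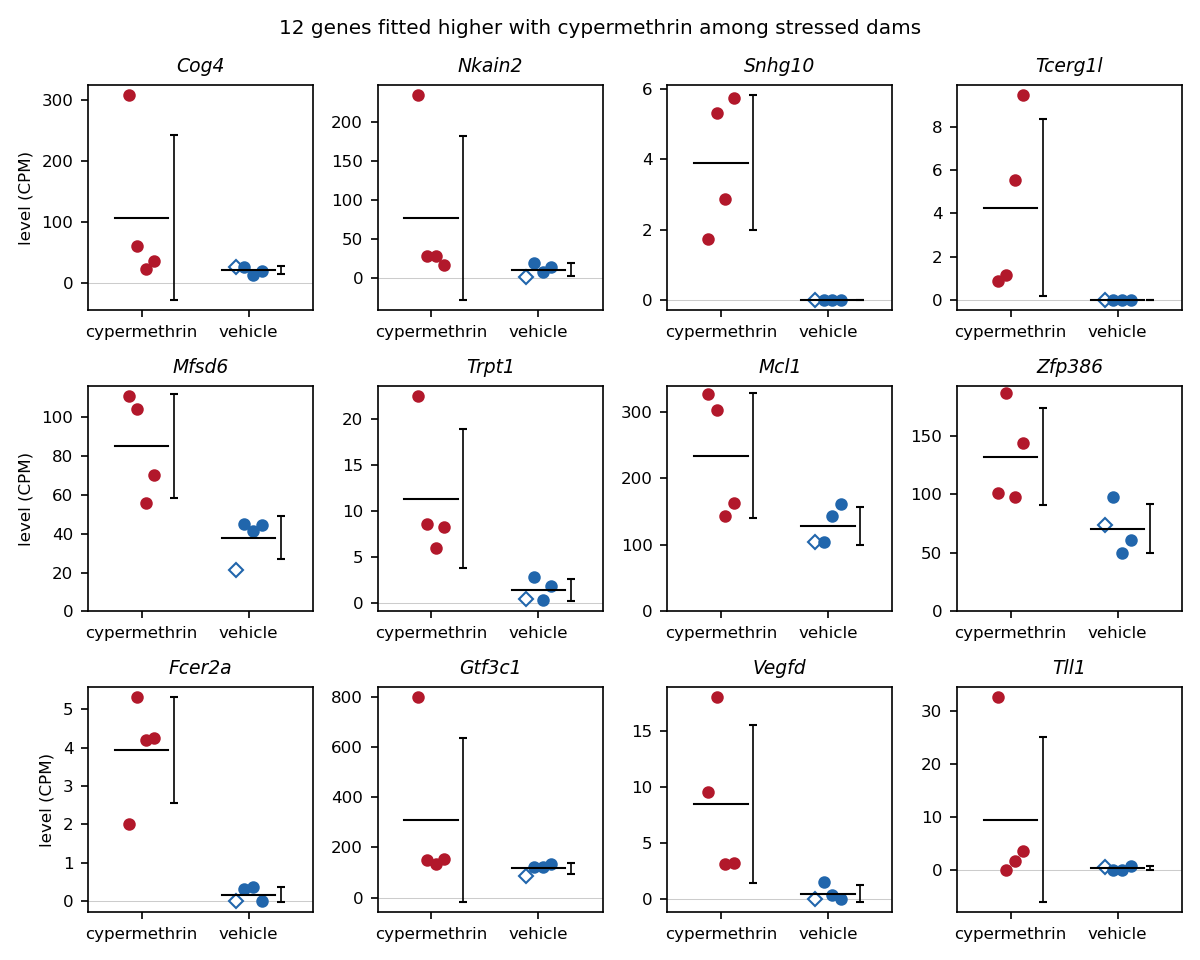
Level in CPM (y axis, linear, 1 scale per panel) of the 12 genes fitted higher with the smallest unadjusted p, in the cypermethrin (red circles, left) and vehicle (blue, right) libraries of stressed dams; lines are means, bars are SDs of 4 libraries, and the open diamond is the library labelled vehicle replicate 1. Cypermethrin replicate 1 was the highest of all 8 libraries in 7 of the 12 panels. The groups did not overlap in 7, as in 3.04% of all genes tested, and the 12 were chosen by p from these same libraries.

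Some of the higher genes had few counts. Snhg10, a small nucleolar RNA host gene, had 65 counts over the 4 cypermethrin libraries and 0 in the vehicle libraries, at least 16.4-fold higher when the vehicle group is set to a floor of 3 counts over the group. Tcerg1l had 71 counts with cypermethrin and 0 with vehicle, at least 17.9-fold higher on the same floor. Fcer2a, the low-affinity IgE receptor gene, had 66 counts with cypermethrin and 2 with vehicle, a ratio of 24.9 (95% counting interval 6.64 to 210.0). All 4 cypermethrin libraries held counts of each of these genes. The non-stressed vehicle libraries held Snhg10 at 2.14 to 4.63 CPM, against 1.73 to 5.73 CPM with cypermethrin in stressed dams. For Fcer2a these ranges were 1.8 to 11.8 and 2.02 to 5.31 CPM, and for Tcerg1l 0 to 3.21 and 0.867 to 9.47 CPM. The folds therefore hold against the stressed vehicle group only. Trpt1, a tRNA phosphotransferase gene, had 5.96 to 22.5 CPM with cypermethrin and 0.356 to 2.82 CPM with vehicle, and Vegfd, a lymphatic growth factor gene, had 3.09 to 18.0 CPM with cypermethrin and 0 to 1.57 CPM with vehicle. Tll1, a metalloprotease gene, had 32.6 CPM in cypermethrin replicate 1 and 0 to 3.49 CPM in the other 3, against 0 to 0.707 CPM with vehicle, and its log2 difference was 2.33 without that replicate, against 4.79.

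Single libraries lay behind much of the list at an unadjusted p under 0.05. Of the 417 genes fitted lower there, 305 were highest in the library labelled vehicle replicate 1, which was the highest of the 8 for 22.9% of all genes tested. Of the 296 fitted higher, 165 were highest in cypermethrin replicate 1, the highest library for 17.6% of all genes. All 417 peaked in a vehicle library and all 296 in a cypermethrin library, so these shares are lower than direction alone would give. Vehicle replicates 2, 3 and 4 were the highest for 11.2%, 16.7% and 7.91% of all genes. Cypermethrin replicates 2, 3 and 4 were the highest for 13.7%, 4.02% and 5.82%. Without the library labelled vehicle replicate 1 there were 232 higher (1.70%) and 265 lower (1.95%), and 279 genes were shared with the 713, which is 39.1% of the 713 and 56.1% of the 497. All cypermethrin libraries lay above or below all vehicle libraries in 402 genes (3.04%), 242 above (1.83%) and 160 below (1.21%), and 203 of them were among the 713. Without the library labelled vehicle replicate 1 this held for 818 genes (6.01%). Fewer libraries are more easily apart by chance, and the number of such genes rose whichever library was left out. Of the 24 genes described above 23 had an unadjusted p under 0.05 without that library, S1pr3 being the exception, and 7 were still among the 24 leading genes.

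**Figure D3:**
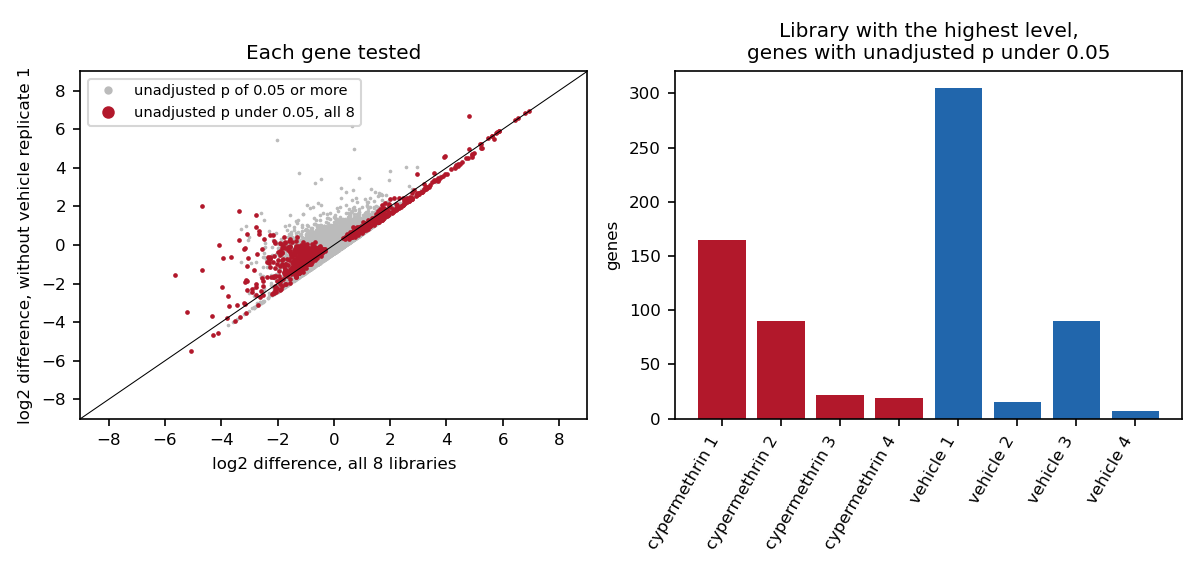
Left, log2 difference (cypermethrin over vehicle, stressed dams) of each gene with all 8 libraries (x axis) and without the library labelled vehicle replicate 1 (y axis), with the line of equal values; red points had an unadjusted p under 0.05 with all 8. Right, number of those genes whose highest level was in each library, cypermethrin in red and vehicle in blue; 305 were highest in vehicle replicate 1 and 165 in cypermethrin replicate 1.

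Leaving out the library that stood apart brought other genes forward, which were named for that repeat. Olfml2b, an extracellular matrix gene, had 1.44, 0.923, 5.08 and 3.99 CPM with cypermethrin, against 0, 30.1, 52.7 and 17.4 CPM with vehicle, the 0 being the library labelled vehicle replicate 1. Its log2 difference was -3.52 ± 0.74 without that library (unadjusted p = 6.24e-05 and adjusted p = 0.637 by edgeR, adjusted p = 0.00447 by DESeq2) and -3.11 with it. Tmem104 showed the same arrangement, with 7.84 to 13.0 CPM with cypermethrin, against 0, 28.8, 59.8 and 27.8 CPM with vehicle. Antxr1, an anthrax toxin receptor gene, ran the other way, with 32.9 to 47.3 CPM with cypermethrin, against 66.1, 6.89, 9.26 and 13.4 CPM with vehicle (log2 difference 1.94 without that library and 0.69 with it), and so did Cntn3, a contactin gene, with 13.6 to 25.9 CPM with cypermethrin, against 27.6, 4.38, 9.62 and 6.13 CPM with vehicle (1.71 without it and 0.90 with it). Med25, a Mediator subunit gene, rested on 383 CPM in vehicle replicate 2, with 37.8 to 46.6 CPM in the other vehicle libraries and 29.2 to 47.1 CPM with cypermethrin.

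Voltage-gated sodium channels are the targets of pyrethroids. Their list here also held auxiliary subunit genes, such as Scn3b, and genes of FGF-family channel partners, such as Fgf13. Of its 11 genes tested 8 were fitted lower, where 51.0% of all genes were. The median log2 difference of the list was -0.28, beside -0.01 over all genes. At an unadjusted p under 0.05 there were 2 lower (background 3.15%) and 0 higher (background 2.24%). Scn3a, the channel of the fetal brain, had 184, 209, 270 and 250 CPM with cypermethrin, against 482, 264, 340 and 312 CPM with vehicle. Scn8a, the channel of the axon initial segment, had 178, 129, 135 and 137 CPM with cypermethrin, against 420, 175, 177 and 161 CPM with vehicle. In both the library labelled vehicle replicate 1 was the highest by far. Without it the log2 difference of Scn8a was -0.24, against -0.69 ± 0.29 with it, and that of Scn3a was -0.42, against -0.61 ± 0.26. In that repeat 0 of the list were left at an unadjusted p under 0.05. Of the 11 genes 9 were then fitted lower and 2 higher, with a median of -0.22, where 50.5% of all genes were fitted higher. Scn2a, with 130 ± 32.9 CPM with cypermethrin and 126 ± 39.1 CPM with vehicle, and Scn1a, with 26.7 ± 10.2 CPM with cypermethrin and 33.1 ± 10.5 CPM with vehicle, differed by less than the spread between libraries (SD, n = 4 each).

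Of 15 voltage-gated calcium channel genes 9 were fitted lower, where 51.0% of all genes were. At an unadjusted p under 0.05 there were 3 lower (background 3.15%) and 0 higher, and 2 lower without the library labelled vehicle replicate 1. These were the T-type channel genes Cacna1h and Cacna1g and, with that library, Cacna1c. Cacna1h had 64.1 to 88.2 CPM with cypermethrin and 91.5 to 146 CPM with vehicle, with no overlap (log2 difference -0.73 ± 0.29), and Cacna1g had 54.9 to 84.7 CPM with cypermethrin and 82.3 to 141 CPM with vehicle (-0.71 ± 0.30). Without the library labelled vehicle replicate 1 they were at -0.64 and -0.74. Cacna1i, the other T-type channel gene, was fitted higher, with 12.6 to 18.2 CPM with cypermethrin and 3.33 to 21.0 CPM with vehicle (0.67, and 0.39 without that library), and was named after its values were seen. Cacna1c, an L-type channel gene, had 201 to 210 CPM with cypermethrin, against 774, 215, 152 and 183 CPM with vehicle, and its log2 difference was 0.16 without the library labelled vehicle replicate 1, against -0.68 with it. Of 19 potassium channel genes 10 were fitted above and 9 below vehicle, with 1 at an unadjusted p under 0.05, Kcnq3, an M-current channel gene (94.8 ± 27.8 CPM with cypermethrin and 51.8 ± 22.6 CPM with vehicle, SD). Kcnma1, a calcium-activated potassium channel gene, had 56.3 to 80.8 CPM with cypermethrin and 86.1 to 125 CPM with vehicle, without overlap, at an unadjusted p of 0.0659.

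Among 18 ionotropic glutamate receptor and auxiliary subunit genes 10 were fitted lower, where 51.0% of all genes were. At an unadjusted p under 0.05 there were 4 lower (background 3.15%) and 0 higher, and 2 lower without the library labelled vehicle replicate 1. Beside Cnih3 the 4 included Grik1 and Grik2 of the kainate receptor genes, while Grik3, Grik4 and Grik5 had an unadjusted p above 0.05. Grik1 had 44.2 to 55.3 CPM with cypermethrin, against 53.7, 88.6, 98.3 and 108 CPM with vehicle, where the lowest was the library labelled vehicle replicate 1 (log2 difference -0.81 ± 0.35, and -0.98 without it). Grik2 had 64.7 to 122 CPM with cypermethrin and 115 to 188 CPM with vehicle (-0.63 ± 0.28, and -0.58 without it). Of 18 GABA receptor and chloride transporter genes 8 were fitted higher and 10 lower, with 0 at an unadjusted p under 0.05, and Gabrb2, a GABA-A receptor subunit gene, led them with -0.48 ± 0.27. Of 20 synaptic vesicle and SNARE genes 14 were fitted lower (background 51.0%), and 11 without the library labelled vehicle replicate 1. Rab3a, a vesicle GTPase gene, had 39.9 to 63.9 CPM with cypermethrin and 74.5 to 98.7 CPM with vehicle, without overlap.

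No gene of interneuron identity passed, and the intervals of several were wide. Of 9 tested GABA synthesis, packaging and uptake genes 5 were fitted higher and 4 lower, and of 21 interneuron transcription factor genes 6 higher and 15 lower. Of all genes 51.0% were fitted lower. In either list 0 had an unadjusted p under 0.05. Slc32a1, a GABA packaging gene, had a log2 difference of -0.61 with a 95% interval of -1.72 to 0.50. Dlx2, of the transcription factor list, had -0.44 with an interval of -1.52 to 0.65. Lhx6, the transcription factor gene of medial ganglionic eminence interneurons, averaged 288 ± 64.0 CPM with cypermethrin and 303 ± 29.5 CPM with vehicle (SD, n = 4 each), a log2 difference of -0.08 with a 95% interval of -0.51 to 0.36. Sox6, which acts after Lhx6, had -0.04 with an interval of -0.46 to 0.39, and its sign turned with upper quartile scaling. Gad2 had 0.12 with an interval of -0.39 to 0.63, and Gad1, the gene behind the reporter by which cells were picked, had -0.21 with an interval of -0.95 to 0.53. Maf, a transcription factor gene of somatostatin interneurons, had -0.60 ± 0.33, and -0.84 without the library labelled vehicle replicate 1 (unadjusted p of 0.011 by edgeR).

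Of 11 interneuron neuropeptide and subtype genes 7 were fitted higher, where 49.0% of all genes were, with a median of 0.35, beside -0.01 over all genes. At an unadjusted p under 0.05 there were 2 higher (background 2.24%) and 0 lower (background 3.15%). Without the library labelled vehicle replicate 1 there was 1 higher. Sst, the neuropeptide gene of somatostatin interneurons, had 214, 185, 211 and 230 CPM with cypermethrin, against 122, 122, 178 and 162 CPM with vehicle. The groups did not overlap, and the log2 difference of 0.52 ± 0.29 had an unadjusted p of 0.0805. Nos1, nitric oxide synthase, had 205, 335, 185 and 207 CPM with cypermethrin, against 123, 116, 227 and 157 CPM with vehicle (0.58 ± 0.25). Cck, the cholecystokinin gene, had 1.16, 70.8, 11.3 and 26.4 CPM with cypermethrin, against 0, 8.14, 0.712 and 10.6 CPM with vehicle (2.44 ± 0.92). Cypermethrin stressed replicate 2 was the highest library for both Nos1 and Cck. Without it their log2 differences were 0.35 and 1.37. Npy, another neuropeptide gene of these cells, averaged 48.3 ± 6.41 CPM with cypermethrin and 33.5 ± 9.92 CPM with vehicle.

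Migration genes were evenly divided with all 8 libraries. Of 32 receptor and ligand genes 16 were fitted higher and 16 lower, with 1 at an unadjusted p under 0.05 on each side, and of 26 cytoskeletal genes 13 and 13, with 0. The receptor and ligand genes, without the library labelled vehicle replicate 1, gave 14 higher and 18 lower, 3 and 2 of them at an unadjusted p under 0.05, and the cytoskeletal genes gave 15 and 11. Dcc, the netrin receptor gene, had 1440, 895, 1020 and 1130 CPM with cypermethrin, against 908, 945, 733 and 859 CPM with vehicle (0.38 ± 0.16), and Ntrk3, the receptor gene for neurotrophin 3, had 96.0 ± 17.7 CPM with cypermethrin and 150 ± 46.9 CPM with vehicle (-0.64 ± 0.28, and -0.41 without that library). The chemokine receptor genes that hold interneurons in their streams leaned opposite ways without passing: Cxcr4 had 25.6 to 80.2 CPM with cypermethrin and 63.4 to 131 CPM with vehicle (-0.65 ± 0.36), and Ackr3 had 62.3 to 124 CPM with cypermethrin and 34.2 to 97.6 CPM with vehicle (0.51 ± 0.34, and 0.29 without that library). Dcx, the microtubule protein gene of migrating neurons, had -0.13 with an interval of -0.39 to 0.13. Erbb4, the neuregulin receptor gene, had -0.17 with an interval of -0.54 to 0.21, and the intervals of both exclude a doubling or halving.

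Glucocorticoid response genes gave 9 higher and 11 lower of 20, with a median of -0.07 and 0 at an unadjusted p under 0.05. The balance turned without the library labelled vehicle replicate 1, with 14 higher and 6 lower, a median of 0.10 and 1 higher at an unadjusted p under 0.05. Both groups had been restrained, so this comparison does not contain the effect of restraint itself. Nr3c1, the glucocorticoid receptor gene, had 14.2 to 21.6 CPM with cypermethrin, against 91.3, 23.5, 7.84 and 10.8 CPM with vehicle, and its log2 difference of -0.92 ± 0.62 became 0.31 without the library labelled vehicle replicate 1. Fkbp5 averaged 32.7 ± 9.11 CPM with cypermethrin and 35.8 ± 14.5 CPM with vehicle, and Sgk1 29.6 ± 13.3 CPM with cypermethrin and 23.9 ± 9.39 CPM with vehicle. Of 18 immediate early genes 8 were fitted higher and 10 lower, and 6 and 12 without that library. Nr4a3, an orphan nuclear receptor gene of this class, had 144, 155, 134 and 153 CPM with cypermethrin, against 332, 276, 213 and 226 CPM with vehicle. Its cypermethrin libraries lay within a narrow band below all vehicle libraries, and the log2 difference was -0.83 ± 0.25 (unadjusted p of 0.00278 by edgeR) and -0.70 without the library that stood apart. Fosl2, an AP-1 gene, had -0.66 ± 0.37 and Klf6, a zinc finger gene, 0.59 ± 0.33, or 0.32 without that library, and Fos had too few counts to be tested.

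Of the toxic and cellular stress lists, heat shock proteins and co-chaperones had 14 of 23 fitted higher, where 49.0% of all genes were. At an unadjusted p under 0.05 there were 2 higher (background 2.24%) and 2 lower (background 3.15%). The mitochondrial chaperone genes Hspa9, with 141 ± 50.1 CPM with cypermethrin and 85.5 ± 17.9 CPM with vehicle (log2 difference 0.71 ± 0.28), and Hspe1, with 101 ± 27.7 CPM with cypermethrin and 61.4 ± 22.9 CPM with vehicle (0.71 ± 0.33), were on the higher side, and Dnajc1 was on the lower. Without the library labelled vehicle replicate 1 there were 18 fitted higher and 5 lower, where 50.5% of all genes were fitted higher. At an unadjusted p under 0.05 there were then 0 higher and 1 lower. Of 18 genes of Nrf2 and oxidative defence 10 were fitted higher, and Hmox1, the haem oxygenase gene induced by oxidative stress, had 23.1, 31.1, 14.1 and 2.49 CPM with cypermethrin, against 8.56, 8.77, 3.21 and 2.36 CPM with vehicle (1.64 ± 0.77). In 3 cypermethrin libraries it lay above all vehicle libraries, and in the other it lay within their range. Of 21 genes of the integrated stress response and serine synthesis 9 were fitted higher and 12 lower, with 1 higher at an unadjusted p under 0.05, of 19 xenobiotic metabolism genes 11 and 8, with 0, and of 15 cell death and p53 genes 7 and 8, with 0.

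Genes of energy supply and translation leaned to the higher side by small amounts. Of 72 nuclear oxidative phosphorylation genes 51 were fitted higher with cypermethrin, where 49.0% of all genes were, with a median log2 difference of 0.12, and 1 had an unadjusted p under 0.05. That was Atp5c1, an ATP synthase subunit gene, and it rested on 638 CPM in cypermethrin replicate 2, against 188 to 209 CPM in the other 3 cypermethrin libraries and 192 to 208 CPM with vehicle. Uqcrfs1, the Rieske protein gene of complex III, had 73.1 to 96.2 CPM with cypermethrin and 37.6 to 63.8 CPM with vehicle, without overlap. Of 74 cytosolic ribosomal protein genes 50 were fitted higher, with a median of 0.07, and Rplp1 alone had an unadjusted p under 0.05, with 382 to 864 CPM with cypermethrin and 324 to 557 CPM with vehicle. Without the library labelled vehicle replicate 1 the counts fitted higher were 44 of 72 and 58 of 74, where 50.5% of all genes were. Summed ribosomal protein levels ran from 28400 to 38800 CPM with cypermethrin and from 31100 to 33200 CPM with vehicle, so the groups overlapped.

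Of 31 replication and mitosis genes 22 were fitted higher, where 49.0% of all genes were, with a median of 0.30. Without the library labelled vehicle replicate 1 there were 21, where 50.5% of all genes were, and the median was 0.13. Birc5, the mitotic survivin gene, had 55.8, 18.7, 9.49 and 6.73 CPM with cypermethrin, against 0.476, 6.89, 1.07 and 11.3 CPM with vehicle, and Dbf4, a replication licensing kinase subunit gene, ran the other way, with 8.69 ± 2.51 CPM with cypermethrin and 24.6 ± 14.5 CPM with vehicle. Each had an unadjusted p under 0.05 (background 2.24% higher and 3.15% lower), and 0 others did. Birc5 did not without the library labelled vehicle replicate 1 (log2 difference 1.79, against 2.15 with it). Of 17 D cyclin and G1 regulator genes 9 were fitted higher and 8 lower, or 7 and 10 without that library, and Ccnd2, the main D cyclin gene of cortical progenitors, averaged 4360 ± 411 CPM with cypermethrin and 4090 ± 230 CPM with vehicle (log2 difference 0.09, interval -0.19 to 0.37). Cnr1, the cannabinoid receptor gene of migrating interneurons, averaged 669 ± 61.5 CPM with cypermethrin and 604 ± 65.5 CPM with vehicle, with an interval of -0.17 to 0.46. Of 9 inflammation and interferon genes 4 were fitted higher and 5 lower, or 5 and 4 without that library.

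Markers of pericytes and meningeal fibroblasts held the most genes on the higher side of any list of other cell types. Of 20 tested 14 were fitted higher, 6 of them at an unadjusted p under 0.05 (background 2.24%), and 2 without the library labelled vehicle replicate 1. Pdgfra, a growth factor receptor gene of fibroblasts, had 71.9, 62.0, 56.1 and 69.3 CPM with cypermethrin, against 9.04, 41.7, 14.6 and 52.1 CPM with vehicle, and Col3a1, a fibrillar collagen gene, had 506, 585, 477 and 481 CPM with cypermethrin, against 218, 449, 305 and 337 CPM with vehicle. Neither overlapped, and the library that stood apart was the lowest for both. Without it the log2 differences were 0.84 for Pdgfra and 0.49 for Col3a1, against 1.13 ± 0.43 and 0.65 ± 0.26. Abcc9, a channel subunit gene of pericytes, had 52.1 to 88.1 CPM with cypermethrin and 13.9 to 60.8 CPM with vehicle. The summed level of the list ran from 2780 to 3770 CPM with cypermethrin and from 2060 to 3240 CPM with vehicle, and none of its 20 genes was at 0 in all 8 libraries. Whether more captured cells of this kind or more RNA in each lay behind such a difference cannot be told apart in pooled cells, and the part of these markers in the other results was not tested.

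The other cell type lists had at most 2 genes on the higher side at an unadjusted p under 0.05. Of 18 cortical glutamatergic neuron genes 9 were fitted higher and 9 lower, or 11 and 7 without the library labelled vehicle replicate 1, and Slc17a7, a vesicular glutamate transporter gene, rested on 431 CPM in the library labelled vehicle replicate 1, against 55.4 to 83.0 CPM in the other vehicle libraries and 27.2 to 121 CPM with cypermethrin. Its log2 difference was -0.03 without that library, against -1.28 with it. Of 12 Cajal-Retzius genes 8 were fitted lower, with a median of -0.30 and summed levels of 2460 to 3130 CPM with cypermethrin and 2870 to 3660 CPM with vehicle; Ebf3, a transcription factor gene of these cells, had 92.7 ± 42.3 CPM with cypermethrin and 159 ± 46.3 CPM with vehicle (-0.78, and -0.57 without that library). Of 14 microglia and macrophage genes 8 were fitted higher and 6 lower, or 5 and 9 without the library labelled vehicle replicate 1. Genes of these cells lay on both sides. Tmem119 had 4.47 ± 4.73 CPM with cypermethrin and 1.25 ± 1.10 CPM with vehicle, a log2 difference of 1.85 ± 1.27. P2ry12, with 6.72 ± 5.67 CPM with cypermethrin and 22.0 ± 10.2 CPM with vehicle, and Csf1r, with 18.8 to 28.4 CPM with cypermethrin and 31.6 to 53.7 CPM with vehicle, had log2 differences of -1.70 ± 0.79 and -0.90 ± 0.78. Of the 3 genes P2ry12 alone had an unadjusted p under 0.05, and it did not without that library (-1.42). Of 14 endothelial genes 9 were fitted higher and 5 lower, of 4 erythroid genes 1 and 3, and of 3 oligodendrocyte and astrocyte genes 0 and 3, with 0 at an unadjusted p under 0.05 in these lists. In the repeat without that library the endothelial genes gave 5 higher and 9 lower, the erythroid genes 3 and 1, and the oligodendrocyte and astrocyte genes 1 and 2.

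**Figure D4:**
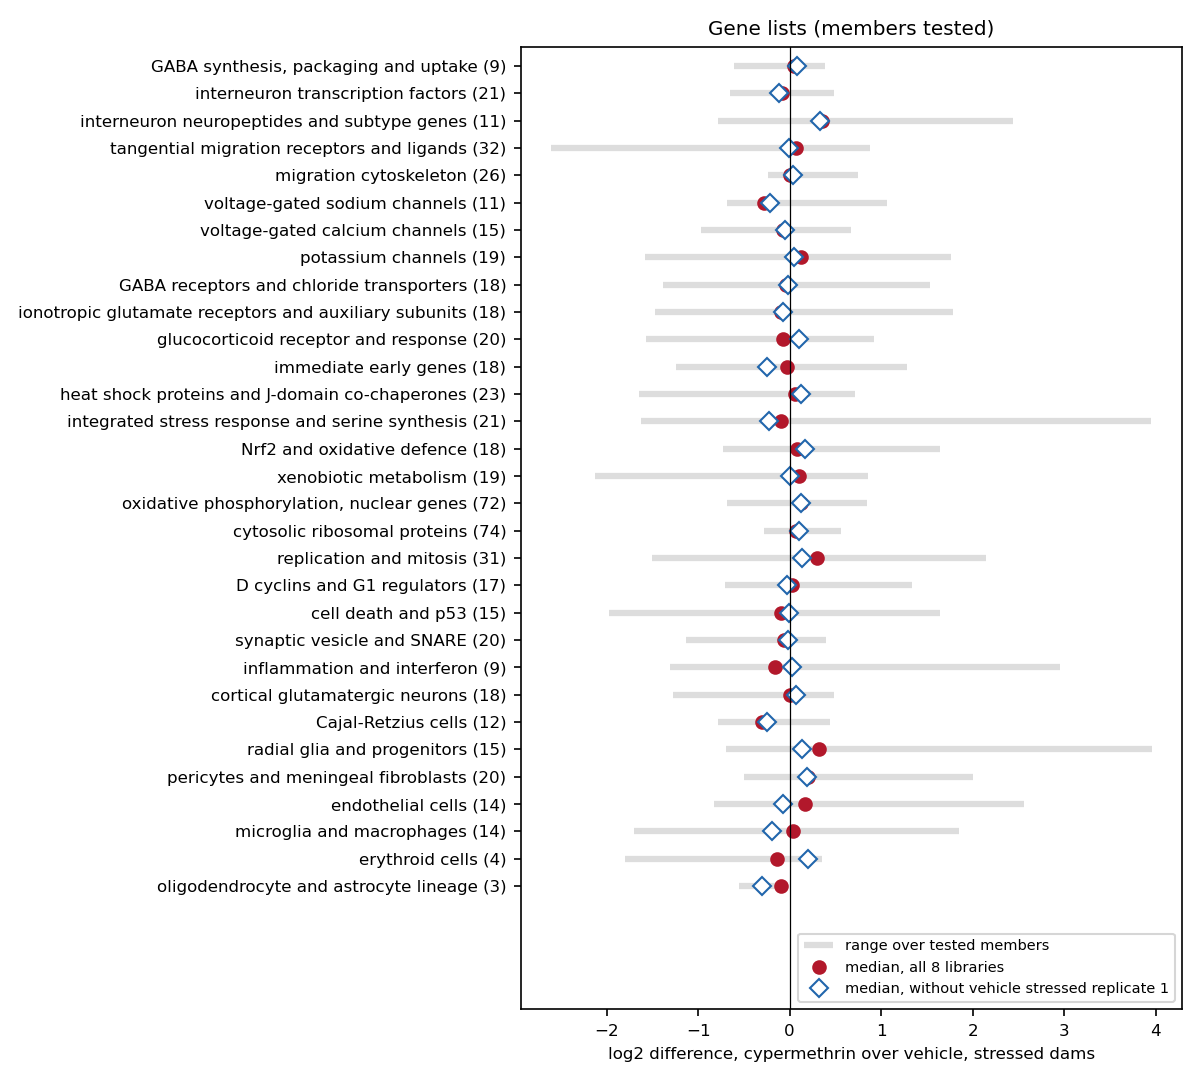
Median log2 difference (cypermethrin over vehicle, stressed dams; x axis) over the tested members of each gene list, with all 8 libraries (red circles) and without the library labelled vehicle replicate 1 (open diamonds); grey bars span the lowest to the highest member and numbers in brackets give the members tested. All medians lay between -0.30 and 0.35, while single members reached -2.61 and 3.96.

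The libraries carry 1 of 2 codes in their descriptions, whose meaning is not given, and each code holds 2 cypermethrin and 2 vehicle libraries. Fitted within the first code, which holds the library labelled vehicle replicate 1 and cypermethrin replicate 1, edgeR called 57 genes, 9 higher and 48 lower. Of these 43 were highest in the library labelled vehicle replicate 1 and 8 in cypermethrin replicate 1. Within the second code edgeR called 0 genes, with 212 at an unadjusted p under 0.05, and 0 of the 57 were among them. Across 13090 genes with a value in both, the log2 differences of the codes had a Pearson r of 0.00638 and a Spearman rho of 0.0224, and 50.8% had the same sign, a description across genes that are not independent replicates. With the code as a term over all libraries edgeR called 0.

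Non-stressed dams offer the same contrast in separate embryos, with no library shared. Of the 24 leading genes 11 had the same sign there, 7 of the 12 higher and 4 of the 12 lower, and 0 had an unadjusted p under 0.05, as 491 of all genes (3.71%) did. Over all 13224 genes 50.4% had the same sign, and Pearson's r was 0.000886. By edgeR's test of the difference between the 2 effects 0 genes (0.0%) passed (smallest adjusted p = 0.985), with 622 (4.70%) at an unadjusted p under 0.05, and DESeq2 and limma voom called 0 as well. With upper quartile scaling the median of these differences was 0.10, against -0.04.

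**Figure D5:**
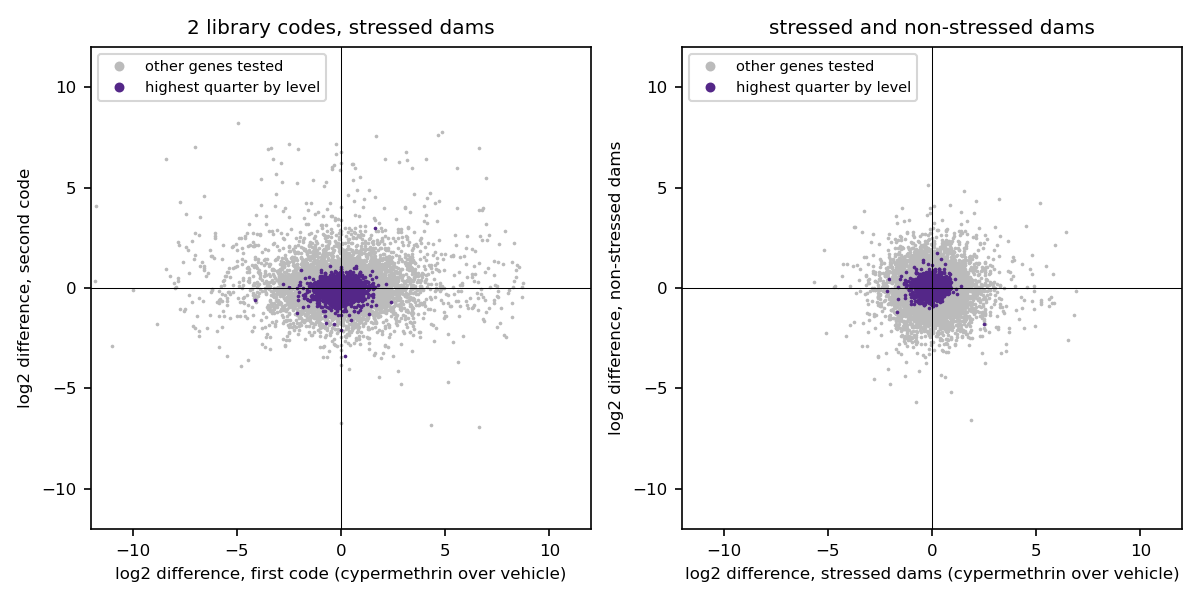
Log2 difference, cypermethrin over vehicle, of each gene: left, the first library code (x axis) against the second (y axis) in stressed dams; right, stressed (x axis) against non-stressed dams (y axis), with the 3306 genes with the highest levels in purple. The clouds show no slant, with 50.8% of genes of the same sign on the left and 50.4% on the right.

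The genes with the smallest p for that difference were chosen by it, so their values are a description. Cnih3 had 60.8, 114, 217 and 85.5 CPM with cypermethrin and 116, 74.3, 68.9 and 56.4 CPM with vehicle in non-stressed dams, so that its lower level with cypermethrin was seen in stressed dams and not there, a difference of -2.07 ± 0.51 between the effects (unadjusted p of 0.000347 by edgeR). Sema5b, a guidance semaphorin gene, had 61.0, 45.2, 31.1 and 28.2 CPM with cypermethrin, against 1.43, 16.6, 24.2 and 13.0 CPM with vehicle in stressed dams, and 22.4, 20.0, 7.17 and 12.6 CPM with cypermethrin, against 72.0, 25.6, 27.5 and 32.9 CPM with vehicle in non-stressed dams. Neither pair of groups overlapped, and they lay in opposite order. Dbf4, Dck, which encodes a nucleoside kinase, and Gzf1, a zinc finger gene, were fitted lower in stressed dams and higher in non-stressed dams; Dck had -0.94 in stressed dams, and -0.21 without the library labelled vehicle replicate 1. Ripk4, a kinase gene, had 1.32 to 21.0 CPM with cypermethrin and 0 to 8.01 CPM with vehicle in stressed dams, and in non-stressed dams it had no count with cypermethrin and 1.01 to 4.38 CPM with vehicle. Cpeb1, which governs polyadenylation of stored mRNAs, was an instance of the same direction in each, with 0.997 to 6.36 CPM with cypermethrin and 0 to 0.712 CPM with vehicle in stressed dams (log2 difference 3.21 ± 1.15) and 4.45 in non-stressed dams. None of these differences passed the adjusted test.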

How the data were processed

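RNA of laser-captured cells was sequenced in 16 libraries, each from 1 embryo of its own litter. The table the authors deposited holds raw read counts for 24539 gene symbols, 18733 of them with a count, and STAR 2.5 and the build mm10 are named in the submitters' processing notes. How reads were counted, with which annotation and whether by strand, is not given in the sources used here. Samples were grouped by their treatment labels.

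Genes were kept by filterByExpr (count minimum 10), which left 13224, and tested with edgeR 4.0.16 in R 4.3.3: TMM scaling, robust dispersions (common dispersion 0.344) and a quasi-likelihood fit of 1 mean per group to all 16 libraries, with Benjamini-Hochberg adjustment over all genes and calls at an adjusted p under 0.05. SEs came from the F statistic. Levels are CPM, with library sizes scaled by TMM. Alternatives were DESeq2 1.42.0, limma 3.58.1 voom, other scalings and filters, each library left out, the 2 groups alone, and the library code as a term or within codes. The fits were tested on simulated data.

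Named genes are the 12 fitted higher and the 12 fitted lower with the smallest p (models without a name left out), the same for the repeat without 1 library, up to 3 genes of each of 31 lists, a fixed set and 6 genes for the difference by stress; some of them are not reported here. The members and lists were chosen with earlier results of these data known. Positions are from GENCODE vM21 (mm10), which matched 23879 symbols. Of the 156 named genes 37 overlap another gene of the table, among them Gad1, Gad2, Ccnd2, Frmd4a, Trpt1, Snhg10, Cacna1c, Csf1r and P2ry12, whose counts are uncertain. Two-sided exact permutation tests were used for totals. Depth, 2410165 to 4324129 counts in the 8 libraries, limits low genes most, and intervals on counts cover counting error only. No 2 libraries of a group agreed within sampling noise (chi-square per gene 5.92 to 40.6).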

Additional observations from a re-analysis of the deposited data

Results flagged for a closer look

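In 186 groups of 4 libraries over the genes named above, 22 had a library farther from the others than Dixon's 95% limit. Chance flags about 1 group in 20 where values are normally spread and genes are chosen without these libraries. Many of these genes were named from the same libraries, so that rate does not hold for them. In the vehicle stressed group the library labelled vehicle replicate 1 lay apart most often. It was the highest for Frmd4a (571 CPM), S1pr3 (242 CPM), Antxr1 (66.1 CPM), Scn8a (420 CPM), Cacna1c (774 CPM), Dck (180 CPM) and Slc17a7 (431 CPM), and it was the lowest for Mfsd6 (21.4 CPM). Other vehicle libraries stood apart for Med25 (383 CPM, replicate 2, highest), Scn1a (17.5 CPM, replicate 3, lowest) and Lhx6 (347 CPM, replicate 4, highest).

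In the cypermethrin stressed group replicate 1 was the highest for Cog4 (308 CPM), Nkain2 (235 CPM), Trpt1 (22.5 CPM), Gtf3c1 (799 CPM), Tll1 (32.6 CPM) and Scn8a (178 CPM), and the lowest for Fkbp5 (19.1 CPM). Replicate 2 was the highest for Nos1 (335 CPM) and Atp5c1 (638 CPM), and replicate 4 for Sarm1 (107 CPM) and Csf1r (28.4 CPM). For Scn8a a library stood apart in each group.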

How the results depend on the processing

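Calls at an adjusted p under 0.05 were 0 with each single library left out except vehicle stressed replicate 3, where edgeR called 1 (range 0 to 1), and 0 with the 2 groups alone, with other scalings, filters or limma voom and with the library code as a term. DESeq2 called 2, and 2 other genes, Olfml2b and C130046K22Rik, without the library labelled vehicle replicate 1, a setting chosen after seeing the data, as was the naming of the second gene. Within the first library code edgeR called 57, and the cause of each of these counts was not tested.

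There were 713 genes with an unadjusted p under 0.05, and 497 to 1114 with 1 library left out (1114 without vehicle stressed replicate 4). They numbered 1275 without the filter on low counts and 212 within the second code. In settings chosen after seeing the data, without the library labelled vehicle replicate 1, they numbered 400 with limma voom and 393 with the code as a term. The genes whose groups do not overlap numbered 402, 643 to 1046 with 1 library left out, and 4316 and 5091 within the first and second code, where 2 libraries face 2. The test of the difference between stressed and non-stressed dams called 0 in every setting in which it was run.

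Differences of 14 named genes changed sign, none of them called. With 1 library left out the ranges were -0.12 to 0.24 for Scn2a, -0.93 to 0.16 for Cacna1c, -0.42 to 0.16 for Gad1, -0.07 to 0.26 for Gad2, -0.18 to 0.06 for Lhx6, -0.12 to 0.07 for Sox6, -1.26 to 0.31 for Nr3c1, -0.39 to 0.06 for Fkbp5 and -0.01 to 0.80 for Atp5c1. With the 2 groups alone and without the library labelled vehicle replicate 1 they were -0.12 for Scn2a, 0.16 for Cacna1c, 0.16 for Gad1, -0.07 for Gad2, 0.31 for Nr3c1 and 0.04 for Fkbp5. Within the first code they were 0.12 for Lhx6 and 0.03 for Sox6, which was also 0.03 with upper quartile scaling. Within the second code they were 0.34 for Scn1a, 0.29 for Cacna1c, -0.26 for Cacna1i, -0.06 for Ackr3, 0.19 for Gad1, -0.11 for Gad2, 0.93 for Nr3c1, 0.36 for Fkbp5, -0.09 for Ccnd2 and -1.08 for Ripk4. No paired analysis was possible because replicates were numbered by accession, which ties no samples together. The median SE was 0.54, and 0.27 for the genes with the highest levels. A difference must exceed its SE by a wide margin to be told from 0. After adjustment edgeR's main fit told none from 0, Tnfrsf22 at -3.2 ± 0.76 included.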
